A study of Mus musculus with 4 samples.

Results

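The lysosome is the acidic compartment in which cells break down proteins, sugars, lipids and whole organelles. Its soluble enzymes are mostly tagged with mannose 6-phosphate and carried there by receptors, a proton pump (the V-ATPase) keeps its lumen acid, and a coat of heavily glycosylated membrane proteins shields its membrane. Myeloid cells are rich in lysosomes and in related granules, and many lysosomal genes carry the CACGTG-containing element bound by Tfeb and related transcription factors. Described here are 32 genes of the lysosome, of 23235 genes in the deposited data. They were chosen by name and role, with earlier results of these data known. These are 8 cathepsins (lysosomal proteases), 7 glycosidases (enzymes that cut sugar chains), 6 other soluble proteins, 8 membrane proteins and 3 proton pump subunits. All 32 names were found.

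The study grew acute myeloid leukaemia (AML) of the genotype NRASG12V/Mll-AF9 in SCID/Beige mice, an immune-deficient strain that keeps its own red cell and myeloid production, after injection of leukaemia cells through the tail vein. Mice were left for 20 days, until white cell counts exceeded 100000 per microlitre. Doxycycline, which turns NRASG12V expression off in this model, was then injected and added to the drinking water from time 0 until sacrifice. There are 4 RNA libraries: 1 with NRASG12V on, headed 0 hours in the tables, and 1 each with NRASG12V off after 48 h, 72 h and 96 h; all carry the same genotype, so Mll-AF9 is present throughout. The labels name no library that received doxycycline with NRASG12V left on, so the switch, the drug and elapsed time cannot be told apart. The harvested tissue is not named in the labels, and each condition is a single library.

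The values are FPKM (fragments scaled to transcript length and library size), which allow levels to be compared between genes per length but hold no read counts, so the depth of each library is unknown. From the steps between low values, the off libraries at 48 h, 72 h and 96 h held 1.15, 1.04 and 1.18 times as many reads per unit of FPKM as the on library. Of 10 AML blast markers, Mpo, the peroxidase of early myeloid cells, was at 1025, 139, 137 and 124 FPKM from 0 h to 96 h. The receptor gene Kit was at 9.88, 10.9, 11.1 and 10.9 FPKM, Cd34 at 20.1, 4.19, 4.73 and 4.66 FPKM and Myb at 35.4, 17.9, 19.0 and 21.0 FPKM. Hoxa10 was at 0.974, 0.866, 0.978 and 1.39 FPKM. Whether these values came from leukaemia cells or cells of the host was not tested. Markers of several cell types moved with the switch. Of 19 erythroid markers 17 rose. The other 2, the alpha globin genes Hba-a1 and Hba-a2, were higher at 48 h (1.56 for both) and 72 h (1.99 and 1.29) than in the on library and are listed at 0 in the 96 h column. The globin share of summed FPKM, short RNAs left out, was 2.69%, 8.75%, 13.1% and 11.9% at 0 h, 48 h, 72 h and 96 h. The 96 h share therefore holds no alpha globin and cannot be compared with the others. Of 12 primary granule markers of early myeloid cells, a list that includes the member Ctsc, 11 fell. Of 18 markers shared by leukocytes 10 fell, with a median log2 change of -0.86. Of 20 macrophage markers that are not members, 3 rose and 3 fell, with a median of 0.24. Over all genes tested, 11.9% rose and 15.3% fell. Of 13 neutrophil markers 6 rose and none fell, and of 10 markers of AML blasts 3 (Mpo, Cd34 and Myb) fell, none rose and 7 did not pass. Of 6 lymphocyte markers tested 3 rose and 1 fell, and of 7 endothelial markers 3 rose and 1 fell. Among the rises, Cd8a and Ncr1 (lymphocyte), Tek (endothelial) and Timd4 (macrophage) were below 1 FPKM in the on library. These genes entered the test described below only through off libraries, so their calls are no support for a rise. The summed level of the 17 leukocyte markers that appear in no lysosomal list was 4344, 3017, 2454 and 1877 FPKM from 0 h to 96 h, and that of the 20 macrophage markers 2522, 3391, 2857 and 2117 FPKM. In these bulk samples, fewer cells of a type and less RNA per cell cannot be told apart, and the part that these shifts play in the lysosomal values was not tested.

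Changes are given as log2((off FPKM + 1)/(on FPKM + 1)) within the deposited table of each time, so that genes at low levels show smaller changes than their FPKM ratio. Each time has 1 library, so a change at 1 time has no replicate check. The 3 off libraries were also set against the on library with limma over 12015 genes that reached 1 FPKM in at least 1 library, and a gene is said to have risen or fallen where its Benjamini-Hochberg adjusted p was below 0.05. The test counts any difference among the 3 times as scatter, and it lends the single on library the scatter of the off libraries. All 32 genes were at or above 1 FPKM in the on library, so none entered the test only through an off library. Gpnmb alone, was below 1 FPKM in every off library and entered only through the on library, where it is high, so its call is no support for a fall. All levels below are FPKM on the scale of the 48 h table, and a mean change is followed by its SD over the 3 off libraries.

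Most of the lysosomal genes were lower after the switch. By limma, 16 of the 32 fell and 1 rose, whereas 15.3% of all 12015 genes fell and 11.9% rose. Among the 31 at 1 FPKM or more in all libraries, 15 fell and 1 rose, against 14.9% and 10.6% of 10719 such genes. The median mean change of the 32 was -0.77, against -0.079 over all genes tested. For 24 of the 32 genes the on library was above each off library, which was so for 45.6% of all genes. For 5 (Ctsb, Ctsd, Ctsf, Tpp1 and Ppt1) it was below each of them, against 33.5% of all genes. At least 2-fold lower levels were seen in 7 of the 32 at 48 h, 8 at 72 h and 15 at 96 h (4.74%, 5.63% and 7.97% of all genes). Gpnmb is among them at each time. At least 2-fold higher levels were seen in 0, 1 and 0 of them at these times (4.89%, 6.46% and 7.22% of all genes). The summed level of the 32 genes was 4007, 2893, 2522 and 2260 FPKM at 0 h, 48 h, 72 h and 96 h. Genes at 1 FPKM or more in all libraries had median changes of -0.15, -0.08 and -0.07 at the 3 off times. With these medians set to 0, 13 of the 32 fell and 2 rose, while over all genes the 1837 that fell and 1429 that rose became 1258 and 1738. The median of the 32 was -0.67 under that scaling and -0.57 when the columns were rescaled without globin genes. Leaving Gpnmb out, 10 of the 15 that fell were called in each alternative that kept a filter on low values, and with no filter limma called no gene.

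**Figure D1:**
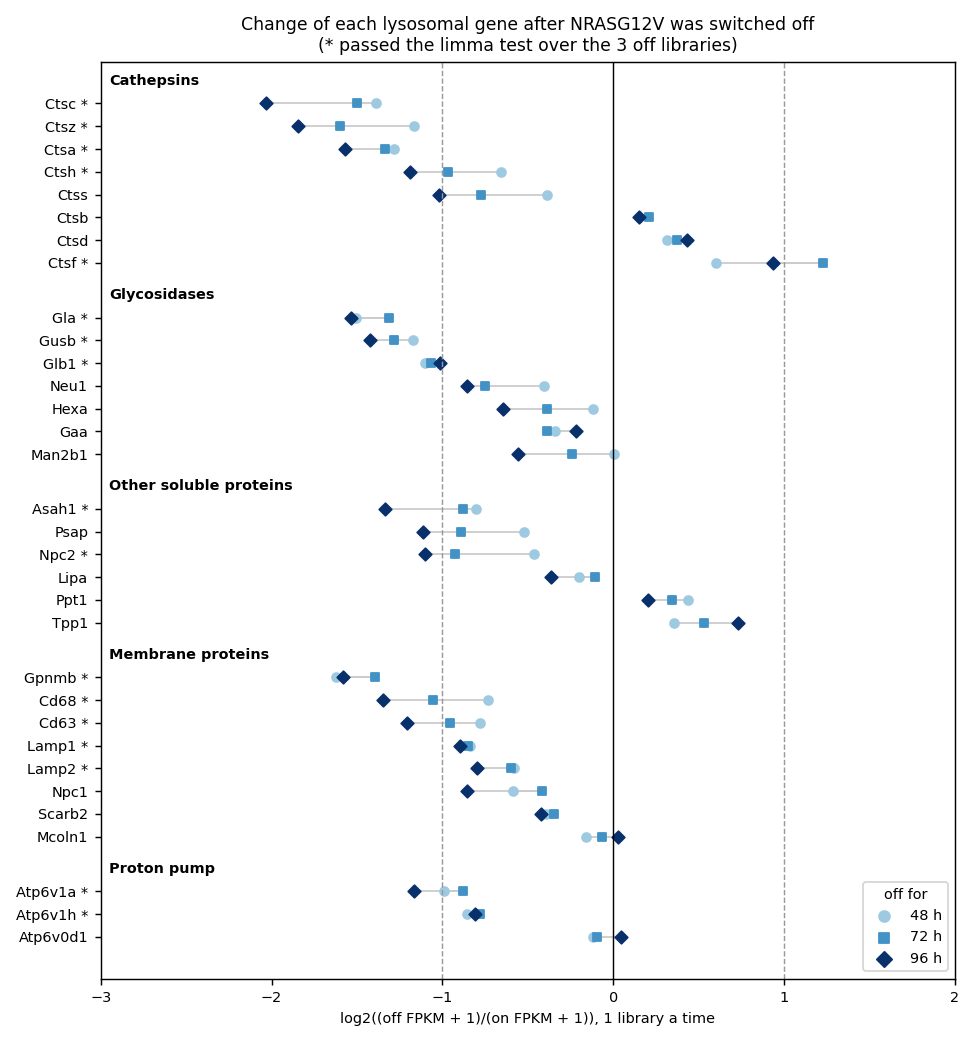
Change of each of the 32 lysosomal genes on the x axis (log2((off FPKM + 1)/(on FPKM + 1))) at 48 h, 72 h and 96 h off, 1 library a time, with genes down the page in 5 classes. Dashed lines mark 2-fold changes, and an asterisk marks the 17 genes that passed the limma test, Gpnmb included, of which Ctsf alone lies right of 0.

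Promoter sequences of the genes were also searched for CACGTG. Many lysosomal genes are known to carry an element with these letters, so a high share may follow from the choice of lysosomal genes. RefSeq promoter windows on GRCm38.p6, from 250 bases before to 50 after the start site, were found for 27 of the 32 genes. The palindrome CACGTG, the same on both strands, was in a window of 10 of these 27 genes (37.0%), against 8.09% of all 27025 genes with a window. The longer TCACGTGA, which contains it and is also a palindrome, was in 6 of the 27 (22.2%), against 1.125% of all. Base composition of the windows was not compared. The 6 genes with TCACGTGA are shown because the same 8 letters stood beside genes that fell (Ctsa, Gla and Atp6v1a) and genes that did not pass the test (Ctsd, Mcoln1 and Atp6v0d1). Each stretch is written 5′ to 3′ on the strand of the gene, with CACGTG in capitals, and positions count from the start site. TCACGTGA lay at -13 to -6 in Ctsa, -228 to -221 in Gla, -132 to -125 in Atp6v1a, -99 to -92 in Ctsd, -46 to -39 in Mcoln1 and -4 to 4 in Atp6v0d1.
Ctsa (chr2:164833730-164833782, plus strand): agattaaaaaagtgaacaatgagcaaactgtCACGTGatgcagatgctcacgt
Gla (chrX:134601196-134601255, minus strand): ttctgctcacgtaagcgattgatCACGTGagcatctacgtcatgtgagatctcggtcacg
Atp6v1a (chr16:44139354-44139421, minus strand): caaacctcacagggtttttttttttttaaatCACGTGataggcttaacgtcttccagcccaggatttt
Ctsd (chr7:142387889-142387956, minus strand): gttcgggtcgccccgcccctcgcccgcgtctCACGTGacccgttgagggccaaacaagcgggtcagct
Mcoln1 (chr8:3500443-3500510, plus strand): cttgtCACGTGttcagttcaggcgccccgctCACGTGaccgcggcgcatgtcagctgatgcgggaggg
Atp6v0d1 (chr8:105566055-105566098, minus strand): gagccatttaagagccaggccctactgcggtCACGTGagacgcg
Of the 13 genes with a window that fell, Gpnmb included, 5 held CACGTG and 3 held TCACGTGA. Of the 13 that did not pass, 4 and 3 did. Gpnmb, whose call is no support for a fall, held neither. The Lamp1 window held CACGTG 4 times. A match is a run of letters and not a shown binding site.

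The cathepsins went in different directions. Of 8, 4 fell, 1 rose and 3 did not pass, with a median change of -0.83. The steepest fall was in Ctsc (cathepsin C, or dipeptidyl peptidase I, which activates the serine proteases of granules), at 80.7 FPKM in the on library and 30.2, 27.9 and 18.9 FPKM at 48 h, 72 h and 96 h off (-1.64 ± 0.34, limma adjusted p = 0.00429). Ctsz (cathepsin Z, a carboxypeptidase) was the most abundant cathepsin in the on library, with 279 FPKM, and stood at 124, 91.5 and 77.0 FPKM at the off times (-1.54 ± 0.34, adjusted p = 0.00611). Ctsa (cathepsin A, a serine carboxypeptidase that also protects beta-galactosidase and neuraminidase) was at 93.3 FPKM on and 37.8, 36.3 and 30.8 FPKM off (-1.40 ± 0.15, adjusted p = 0.00286). In each of these 3 genes every off library was more than 2-fold below the on library and the 96 h library was the lowest. Ctsh (cathepsin H, an aminopeptidase) fell less, at 104 FPKM on and 65.6, 52.6 and 44.98 FPKM off (-0.94 ± 0.27, adjusted p = 0.0236; 0.0551 with the median change set to 0 and 0.0587 when rescaled without globin genes).

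The main cathepsins of general protein breakdown did not share that fall. Ctsd (the aspartic protease cathepsin D) stood at 220 FPKM on and 273, 285 and 297 FPKM off, all 3 above the on library (0.37 ± 0.06, limma adjusted p = 0.1996). Ctsb (the cysteine protease cathepsin B) was at 174 FPKM on and 193, 201 and 193 FPKM off (0.17 ± 0.04, adjusted p = 0.547). The order of these cathepsins turned round: Ctsz per Ctsd was 1.27 at 0 h and 0.453, 0.321 and 0.259 at 48 h, 72 h and 96 h. Ctsf (cathepsin F, also a cysteine protease) was the 1 gene of the 32 that rose, at 6.78 FPKM on and 10.8, 17.3 and 14.0 FPKM off (0.92 ± 0.31, adjusted p = 0.0279). Ctsf was highest at 72 h and did not pass without that library (limma adjusted p = 0.0643). Fewer genes passed in that setting, where 1225 of all genes fell and 1138 rose, against 1837 and 1429 with all libraries. Ctss (cathepsin S, which trims the MHC class II invariant chain and is abundant in macrophages) was at 213 FPKM on and 162, 124 and 104 FPKM off. It did not pass (-0.73 ± 0.32, adjusted p = 0.0747), and it did without the 48 h library (adjusted p = 0.0106).

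**Figure D2:**
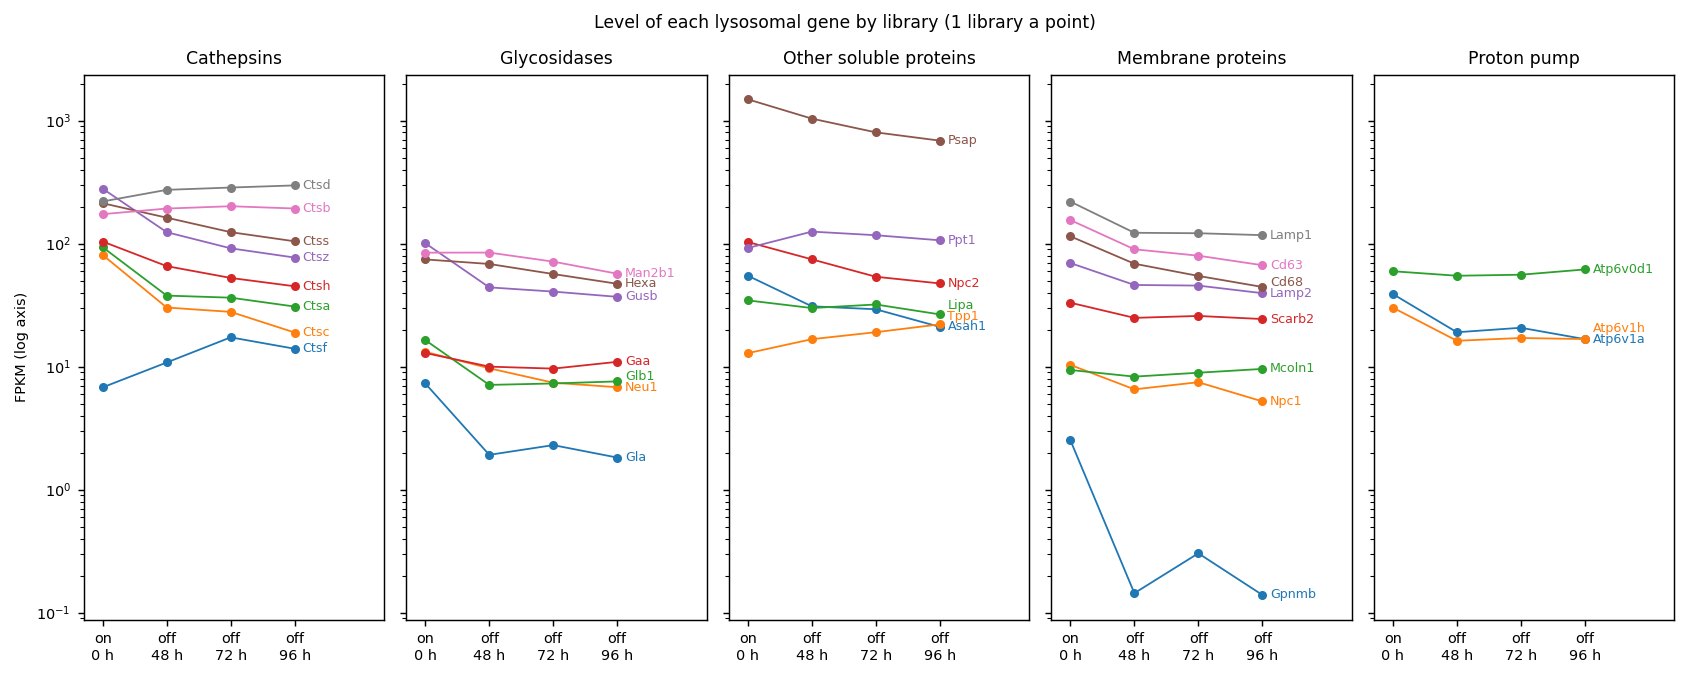
FPKM of each gene on a log y axis in the on library (0 h) and the off libraries at 48 h, 72 h and 96 h on the x axis, 1 panel a class and 1 library a point. Lines join points of a gene for the eye; Ctsd and Ctsb stay between 174 and 297 FPKM while Ctsz, Ctsa and Ctsc drop, and Gpnmb is at 0.139 FPKM at 96 h.

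All 7 glycosidases had negative mean changes, with a median of -0.67, and 3 fell while 4 did not pass. Gusb (beta-glucuronidase, which acts on glycosaminoglycans) was at 101 FPKM on and 44.1, 40.7 and 36.9 FPKM off (-1.29 ± 0.12, limma adjusted p = 0.00347). Gla (alpha-galactosidase A, the enzyme missing in Fabry disease) was at 7.29 FPKM on and 1.92, 2.30 and 1.82 FPKM off (-1.45 ± 0.12, adjusted p = 0.00173). Glb1 (beta-galactosidase) was at 16.4 FPKM on and 7.10, 7.29 and 7.58 FPKM off (-1.06 ± 0.04, adjusted p = 0.00483). These 3 were at least 2-fold lower at every off time, and their off libraries lay close together, so that most of the difference was already there at 48 h.

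The other 4 glycosidases moved later or little. Neu1 (the sialidase neuraminidase 1) was at 13.2 FPKM on and 9.69, 7.40 and 6.80 FPKM off (-0.67 ± 0.24, limma adjusted p = 0.0537, and 0.00958 without the 48 h library). Hexa (the alpha subunit of beta-hexosaminidase) was at 74.3 FPKM on and 68.3, 56.6 and 47.1 FPKM off (-0.38 ± 0.26, adjusted p = 0.256). Man2b1 (lysosomal alpha-mannosidase) was at 84.4 FPKM on and 84.5, 71.3 and 56.9 FPKM off (-0.27 ± 0.28, adjusted p = 0.444). Its 48 h library equalled the on library, and the difference grew to 96 h. Gaa (acid alpha-glucosidase, which degrades glycogen) was at 12.9 FPKM on and 9.99, 9.63 and 10.9 FPKM off (-0.31 ± 0.09, adjusted p = 0.226).

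Among the soluble proteins of lipid and other breakdown, 2 of 6 fell, none rose and 4 did not pass (median -0.53). Psap (prosaposin, the precursor of the saposins that help enzymes reach sphingolipids) was the most abundant of all 32 genes in every library, at 1488 FPKM on and 1037, 802 and 687 FPKM off. It lay just outside the threshold (-0.84 ± 0.30, limma adjusted p = 0.0513) and passed without the 48 h library (adjusted p = 0.0214) and without the 96 h library (0.0310). Npc2 (which binds cholesterol in the lumen and hands it to Npc1) lay just inside, at 103 FPKM on and 74.5, 53.7 and 47.4 FPKM off (-0.83 ± 0.33, adjusted p = 0.0490). It no longer passed without the 72 h library (adjusted p = 0.108), with the median change set to 0 (0.105) or when rescaled without globin genes (0.119). Asah1 (acid ceramidase) fell, at 54.8 FPKM on and 30.9, 29.2 and 21.0 FPKM off (-1.01 ± 0.29, adjusted p = 0.0187).

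In contrast to these, 2 enzymes of this class lay above the on library at every off time, without passing the test. Tpp1 (the aminopeptidase tripeptidyl peptidase 1) was at 12.9 FPKM on and 16.7, 19.0 and 22.1 FPKM off (0.54 ± 0.19, limma adjusted p = 0.0844). It passed without the 48 h library (adjusted p = 0.0274), with the median change set to 0 (0.0447) and when rescaled without globin genes (0.0309). Ppt1 (palmitoyl-protein thioesterase 1, which removes fatty acids from proteins) was at 92.0 FPKM on and 125, 117 and 106 FPKM off (0.33 ± 0.12, adjusted p = 0.256). Lipa (lysosomal acid lipase, which splits cholesteryl esters) was at 34.5 FPKM on and 29.9, 31.98 and 26.6 FPKM off (-0.22 ± 0.13, adjusted p = 0.413).

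Of the 8 membrane proteins, 5 fell, Gpnmb included, none rose and 3 did not pass (median -0.76). Of the 7 at 1 FPKM or more in all libraries, which leaves Gpnmb out, 4 fell and none rose (median -0.66). The main coat proteins fell by less than 2-fold: Lamp1 was at 219 FPKM on and 122, 121 and 117 FPKM off (-0.86 ± 0.03, limma adjusted p = 0.0153), and the off libraries lay within a narrow band. Lamp2, which also serves chaperone-mediated autophagy, was at 69.5 FPKM on and 46.1, 45.6 and 39.5 FPKM off (-0.66 ± 0.12, adjusted p = 0.0399). Neither passed without the 72 h library (adjusted p = 0.0857 for Lamp1 and 0.162 for Lamp2), and Lamp2 did not pass with the median change set to 0 (0.0713) or when rescaled without globin genes (0.129). The tetraspanin Cd63, found in late endosomes and granules, fell with each later library, at 155 FPKM on and 89.9, 79.7 and 66.7 FPKM off (-0.98 ± 0.21, adjusted p = 0.0158). Cd68, a Lamp relative of macrophages and other myeloid cells, was at 115 FPKM on and 68.6, 54.6 and 44.4 FPKM off (-1.04 ± 0.31, adjusted p = 0.0196).

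Gpnmb, a glycoprotein of lysosomes and melanosomes that marks some macrophages, was the least abundant of the 32 genes. It was at 2.52 FPKM on and 0.144, 0.304 and 0.139 FPKM off, so the off libraries were all below the on library and below the level needed to enter the test (-1.53 ± 0.12). Cd68, Gpnmb and Ctss are also macrophage markers. Of the 20 macrophage markers outside the lysosomal list, Trem2, Msr1 and Cd14 fell (limma mean changes of -2.999, -2.44 and -1.52), Vcam1, Spic and Timd4 rose (0.93, 0.76 and 1.62) and 14 did not pass. Timd4 was below 1 FPKM in the on library and entered the test only through the off libraries. The other membrane proteins did not pass. Npc1, the sterol transporter of the lysosomal membrane, was at 10.3 FPKM on and 6.53, 7.47 and 5.22 FPKM off (-0.62 ± 0.22, limma adjusted p = 0.0634). Scarb2 (LIMP-2, the receptor that carries beta-glucocerebrosidase to lysosomes) was at 33.1 FPKM on and 24.9, 25.8 and 24.4 FPKM off (-0.39 ± 0.04, adjusted p = 0.140). Mcoln1 (the calcium channel TRPML1) was at 9.39 FPKM on and 8.29, 8.92 and 9.58 FPKM off (-0.067 ± 0.09, adjusted p = 0.809), with a mean change that turned positive when the median change was set to 0.

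Of the 3 pump subunits of the list, 2 fell and 1 did not pass (median -0.82). Atp6v1a, the catalytic subunit of the ATP-splitting V1 part, was at 38.9 FPKM on and 19.0, 20.7 and 16.7 FPKM off (-1.01 ± 0.15, limma adjusted p = 0.00833). Atp6v1h, a regulatory V1 subunit, was at 30.1 FPKM on and 16.2, 17.1 and 16.7 FPKM off (-0.82 ± 0.04, adjusted p = 0.0129, and 0.0516 without the 72 h library). Atp6v0d1, which couples the V1 part to the membrane-bound V0 part, was at 59.6 FPKM on and 54.8, 55.8 and 61.6 FPKM off (-0.055 ± 0.09, adjusted p = 0.854), a change whose sign depended on the scaling. Of the 15 further pump subunits and accessory proteins tested, 7 fell, 1 rose and 7 did not pass (median -0.47). Of these 15, 2 fell and 1 rose without the 72 h library, where 1225 of all 12015 genes fell and 1138 rose. With the median change set to 0, 1 of the 15 fell and 1 rose, while of all genes 1258 fell and 1738 rose.

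Within the pump, the alternative a subunits of the V0 part moved in opposite directions. Atp6v0a1, the broadly used a1 form, rose, at 12.7 FPKM on and 25.5, 32.2 and 33.5 FPKM off (1.19 ± 0.20, limma adjusted p = 0.00609). Tcirg1, the a3 form known from osteoclasts and other lysosome-rich cells, fell, at 57.3 FPKM on and 35.2, 27.6 and 23.2 FPKM off (-0.99 ± 0.29, adjusted p = 0.0200, and 0.0502 with the median change set to 0). Tcirg1 per Atp6v0a1 was 4.52 at 0 h and 1.38, 0.857 and 0.694 at 48 h, 72 h and 96 h, so the a1 form had the higher level per length from 72 h on. Another form, Atp6v0a2, was at 16.3 FPKM on and 16.8, 15.9 and 15.1 FPKM off (-0.035 ± 0.07, adjusted p = 0.898). The largest fall among the further pump genes was in Atp6ap2, the prorenin receptor and pump accessory protein (-1.17 ± 0.04, adjusted p = 0.00372). Atp6v0c, the proton-carrying ring subunit, also fell (-0.76 ± 0.14, adjusted p = 0.0306), but not without the 72 h library (0.202) with the median change set to 0 (0.0539) or rescaled without globin genes (0.0789); it has pseudogene copies that may share its reads.

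**Figure D3:**
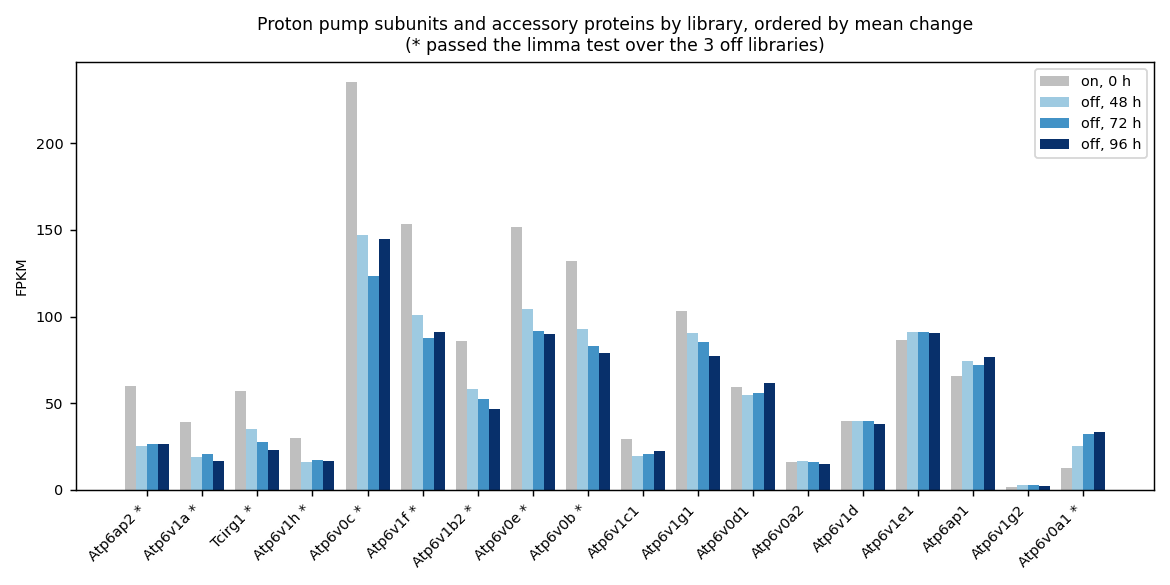
FPKM on the y axis of the 3 proton pump genes of the list and 15 further pump subunits and accessory proteins, ordered by mean change from left to right, with 1 bar each for the on library (0 h) and the off libraries at 48 h, 72 h and 96 h. Tcirg1 stands near the left end and Atp6v0a1, at 12.7 FPKM on and 33.5 FPKM at 96 h, at the right end.

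Timing differed among the members. The 96 h library was lower than the 48 h library for 22 of the 32 genes, against 40.4% of all genes tested. It was also lower for 17 of the 18 leukocyte markers, all 12 primary granule markers and all 13 neutrophil markers. The same held for 15 of the 20 macrophage markers that are not members, but for only 2 of the 19 erythroid markers and 6 of the 25 autophagy genes. The order over time is therefore not particular to the lysosomal genes. The median change of the 32 was -0.55, -0.78 and -0.88 at 48 h, 72 h and 96 h, and that of the leukocyte markers -0.61, -0.85 and -1.11. By class, the cathepsin median went through -0.52, -0.87 and -1.10, the glycosidases through -0.41, -0.75 and -0.86, the other soluble proteins through -0.33, -0.49 and -0.73 and the membrane proteins through -0.66, -0.72 and -0.88. The pump median was nearly level, at -0.85, -0.78 and -0.81. Within a class the spread was wide, since mean changes of the cathepsins ran between -1.64 and 0.92.

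Of 37 further hydrolases, 11 fell, 4 rose and 22 did not pass (median -0.31, and -0.11 rescaled without globin genes). The falls were led by Ifi30 (a thiol reductase that unfolds antigens, -1.22 ± 0.32, limma adjusted p = 0.0133) and Arsb (arylsulfatase B, -1.15 ± 0.23, adjusted p = 0.00833). The rises were led by Ctse (cathepsin E, an aspartic protease that is also found in red cells), at 87.1 FPKM on and 210, 303 and 347 FPKM off (1.67 ± 0.37, adjusted p = 0.00551). Acp5 (tartrate-resistant acid phosphatase, an enzyme of osteoclasts and macrophages) followed, at 27.5 FPKM on and 66.6, 77.5 and 101 FPKM off (1.52 ± 0.30, adjusted p = 0.00479). Both were higher in each later library. The median change of the 19 erythroid markers was 1.77, 2.22 and 2.39 at the same times, and its part in these values was not tested. Without the 72 h library, 8 of the 37 fell and 2 rose, while of all 12015 genes 1225 fell and 1138 rose.

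Of 19 further membrane proteins tested, 5 fell and none rose, and their median of -0.07 was near that of all genes and turned to 0.03 with the median change set to 0. Tmem192, a protein of the lysosomal membrane, had the largest fall, at 28.9 FPKM on and 10.04, 7.10 and 7.07 FPKM off (-1.73 ± 0.26, limma adjusted p = 0.00205). The nucleoside transporter Slc29a3 (-1.17 ± 0.18, adjusted p = 0.00544), the leukocyte protein Laptm5 (-1.05 ± 0.31, adjusted p = 0.0218) and Ostm1, a partner of the chloride exchanger Clcn7 (-0.70 ± 0.10, adjusted p = 0.0254), fell as well. Ostm1 did not pass without the 72 h library (adjusted p = 0.0852) or rescaled without globin genes (0.0848), nor Laptm5 with the median change set to 0 (0.0519). Of the 19, 3 fell and 1 rose both without the 72 h library and rescaled without globin genes, and 3 fell and none rose with the median change set to 0. Over all 12015 genes, 1225, 1021 and 1258 fell in these settings, in that order, and 1138, 2009 and 1738 rose.

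Of 19 genes that sort enzymes to the lysosome, 8 fell, 1 rose and 10 did not pass, with a median of -0.35. Of all genes tested, 15.3% fell and 11.9% rose. Gnptab, part of the enzyme that starts the mannose 6-phosphate tag, was at 17.3 FPKM on and 8.57, 9.04 and 8.18 FPKM off (-0.93 ± 0.06, limma adjusted p = 0.00833). Nagpa, which uncovers the tag, was at 22.5 FPKM on and 11.3, 9.53 and 10.3 FPKM off (-1.04 ± 0.11, adjusted p = 0.00609). Igf2r, the large mannose 6-phosphate receptor, rose at low levels, at 1.03 FPKM on and 2.33, 2.66 and 2.57 FPKM off (0.78 ± 0.06, adjusted p = 0.0117). The other receptor for the tag, M6pr, fell, at 146 FPKM on and 85.5, 85.9 and 95.5 FPKM off (-0.71 ± 0.09, limma adjusted p = 0.0318). M6pr did not pass without the 72 h library (adjusted p = 0.189) or rescaled without globin genes (0.0893). Vps18, a tethering subunit for fusion with the lysosome, fell (-0.73 ± 0.09, adjusted p = 0.0211; 0.0701 without the 72 h library and 0.0667 rescaled without globin genes). Without the 72 h library 2 of the 19 fell and 1 rose, while of all 12015 genes 1225 fell and 1138 rose. Rescaled without globin genes, 2 of the 19 fell and 2 rose, while of all genes 1021 fell and 2009 rose.

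Among 19 regulators, 4 fell and 2 rose, while 15.3% of all genes tested fell and 11.9% rose. Without the 72 h library 2 of the 19 fell and 0 rose, while of all 12015 genes 1225 fell and 1138 rose. Tfeb, the factor that binds the CACGTG element, was at 19.0 FPKM on and 13.02, 10.8 and 10.001 FPKM off (-0.71 ± 0.18, limma adjusted p = 0.0338; 0.111 without the 72 h library, 0.0748 with the median change set to 0 and 0.102 rescaled without globin genes). Its relative Tfe3 was at 16.05 FPKM on and 17.7, 18.1 and 18.8 FPKM off (0.17 ± 0.04, adjusted p = 0.494). Mitf, of the same family, was at 1.38 FPKM on and 0.969, 1.07 and 1.04 FPKM off (-0.23 ± 0.04, adjusted p = 0.318). The fourth family member, Tfec, known from macrophages, fell most, at 14.1 FPKM on and 2.99, 3.81 and 2.80 FPKM off (-1.84 ± 0.18, adjusted p = 0.00132). Next came 0910001L09Rik, the older symbol of Lamtor4, a subunit of the Ragulator complex that anchors mTORC1 signalling to lysosomes (-1.11 ± 0.22, adjusted p = 0.00999). Fnip2, a folliculin partner, rose (0.80 ± 0.28, adjusted p = 0.0368; 0.104 without the 72 h library).

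Autophagy genes, whose products deliver cargo to the lysosome, had a positive median change: 7 of 25 rose, 2 fell and 16 did not pass, at 0.14. By the same test, 11.9% of all genes rose and 15.3% fell. Optn, a receptor for mitochondria and other cargo, had the largest rise, at 8.66 FPKM on and 24.4, 33.2 and 36.3 FPKM off (1.72 ± 0.29, limma adjusted p = 0.00248). Atg4b, the protease that primes the LC3 family, was at 15.7 FPKM on and 25.0, 30.3 and 39.2 FPKM off (0.94 ± 0.31, adjusted p = 0.0274). The starting kinase Ulk1 (0.85 ± 0.28, adjusted p = 0.0303) and the lipid-binding Wipi2 (0.84 ± 0.26, adjusted p = 0.0300) rose too, but not without the 72 h library (adjusted p = 0.0532 and 0.0581). Without that library 2 of the 25 rose and none fell, while of all 12015 genes 1138 rose and 1225 fell. Optn and Atg4b were higher with each later library, and the erythroid markers rose over the same libraries; their part in these values was not tested.

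**Figure D4:**
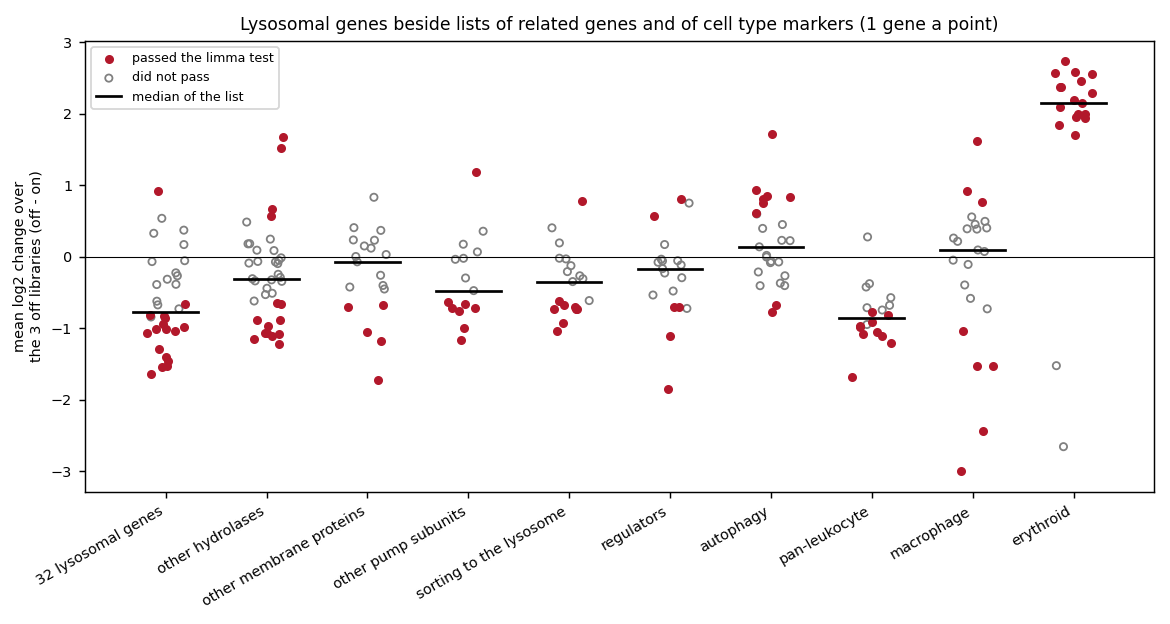
Mean log2 change over the 3 off libraries (off minus on, y axis) of each gene in the lysosomal list, in 6 lists of related genes and in 3 lists of cell type markers, 1 gene a point with a bar at each list's median. The 23 macrophage markers shown (median 0.095) include the members Cd68, Gpnmb and Ctss. These genes, Laptm5 and Vps11 are plotted in each list that holds them. Neutrophil, primary granule, lymphocyte, endothelial and AML blast markers are not plotted. Filled red points passed the limma test; the lysosomal genes and the leukocyte markers have medians of -0.77 and -0.86, the autophagy genes 0.14 and the erythroid markers 2.15.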

How the data were processed

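Bulk RNA-seq of 4 libraries was analysed from gene tables. Per the submitters' processing notes, TopHat2 2.0.4 and Cuffdiff were used with build mm9; the sources used here give neither annotation nor strand setting. The authors deposited FPKM values in tables pairing the on library with each off library; their table of a combined off value was not used. The on column of the 72 h and 96 h tables was 0.949 and 0.947 times that of the 48 h table, and at least 99.9% of values matched within 0.1% after that factor, which was used for levels. Where genes overlap (Ctsa, Ctsb, Glb1, Hexa, Ppt1 and Asah1, 6 of the 32, on GRCm38), reads cannot be assigned with certainty.

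limma 3.58.1 (statmod 1.5.0, R 4.3.3) was run on log2 values with a pseudocount of 1 FPKM, 1 on against 3 off libraries, eBayes with trend and robust settings, two-sided, with Benjamini-Hochberg adjustment over 12015 genes. For it, each off value was the on value plus the change within its own table. Nothing says that the libraries are separate animals, so the p-values cover scatter between libraries, which may be technical. The procedure was run on simulated data in which the on library was given the same scatter as the off libraries. That run therefore cannot check whether the real on library varies in this way.

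The members and lists were chosen with earlier results of these data known. All members are named, and from each related list up to 4 called genes of largest change, beside Tfeb, Tfe3 and Mitf. Mpo, Kit, Cd34, Myb, Hoxa10, Atp6v0a2, M6pr, Cd8a, Ncr1, Tek and the called macrophage markers were picked after their values were seen. Of 255 entries of the 14 related and marker lists, 253 matched. Vps11 is in the sorting and the autophagy list, and Laptm5 in the membrane and the leukocyte list. Mpo is in the primary granule and the AML blast list, and Ptprc in the leukocyte and the AML blast list. Alternatives were pseudocounts of 0.1 and 5 FPKM, no filter or one at 5 FPKM, scaling by the median or without globin genes, a common scale, plain eBayes, and leaving out each off library.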

Additional observations from a re-analysis of the deposited data

Results flagged for a closer look

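In 3 of the 32 lysosomal genes the change had opposite signs at different times, each time being 1 library, and the difference between times was not tested. Man2b1 changed by 0.002, -0.24 and -0.56 at 48 h, 72 h and 96 h, a difference of -0.56 between 96 h and 48 h. Mcoln1 changed by -0.16, -0.07 and 0.03, a difference of 0.19. Atp6v0d1 changed by -0.12, -0.09 and 0.05, a difference of 0.17. None of the 3 passed the limma test over the off libraries (adjusted p = 0.444, 0.809 and 0.854).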

How the results depend on the processing

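Without a filter on low values, limma called 0 genes in either direction and 0 of the 32 members, with 3991 of 23235 genes and 12 members at an unadjusted p below 0.05. Leaving out 1 off library gave 12 to 19 members that fell and 0 to 2 that rose, 1225 to 2287 genes that fell and 1138 to 1872 that rose; the lowest were without the 72 h library. The members' median then ran between -0.84 and -0.64, cathepsins -0.99 to -0.70, glycosidases -0.81 to -0.58, other soluble proteins -0.62 to -0.42, membrane proteins -0.80 to -0.72 and pump -0.83 to -0.80. With the median change set to 0, 2 members rose, 1 was at least 2-fold higher at 96 h, the pump median was -0.71, and the mean changes of Mcoln1 and Atp6v0d1 turned to 0.033 and 0.046. Rescaled without globin genes (with alpha globins listed at 0 at 96 h), 2 members rose, 1021 genes fell and 2009 rose, 4 members were at least 2-fold lower at 48 h and 1 higher at 96 h. Medians were then -0.57 for all members, -0.32 for other soluble, -0.55 for membrane proteins and -0.61 for the pump, and Mcoln1 and Atp6v0d1 were at 0.12 and 0.15. A pseudocount of 5 FPKM left 4 and 5 members at least 2-fold lower at 48 h and 72 h, 0 higher at 72 h, and medians of -0.57 for membrane proteins and -0.69 for the pump; a pseudocount of 0.1 FPKM put 1 member at least 2-fold higher at 96 h. The cause of these shifts was not tested. No paired analysis was possible because each condition has 1 library. With FPKM alone, depth sets no counting interval here.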
